A study of Solanum pimpinellifolium and Solanum chilense with 12 samples.

Results

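Styles collected 24 h after self-pollination were compared between a self-incompatible (SI) and a self-compatible (SC) wild tomato: the 3 libraries of S. chilense (SIP) against the 3 libraries of S. pimpinellifolium (SCP). A gene was compared when it had at least 1 RPKM (reads on a gene, scaled by gene length and library size) in 3 or more of these 6 libraries, which 19268 of 34718 genes with values did. In S. chilense LA0130 self-pollen tubes are stopped in the style, whereas in S. pimpinellifolium LA1585 they grow through it. Styles with their stigmas were taken from greenhouse plants of both accessions, and unpollinated styles of each (SIUP and SCUP, 3 libraries each) served to separate what differed without pollen. Each species was represented by 1 accession, so species, accession and mating system cannot be told apart here. The methods call the 3 libraries of a group biological replicates without saying how many plants each came from, and the p-values cover only the spread between these libraries.

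In the gametophytic self-incompatibility of the nightshade family, the pistil makes S-RNases that enter the growing pollen tube, and a tube whose own S-haplotype matches them is arrested. A compatible tube instead grows through the transmitting tissue of the style, whose cells secrete proteins, sugars and wall-loosening enzymes into the matrix around it. Pollination is also known to set off ethylene synthesis in the pistil, and auxin, abscisic acid and jasmonate take part in flower ageing, in wounding responses and in the start of fruit development.

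The S. chilense reads were placed on tomato genes less completely. The reads counted on genes came to 73.3% to 74.7% of the kept read pairs in the SIP libraries and to 86.4% to 88.0% in the SCP libraries, and the unpollinated libraries differed in the same way (72.6% to 74.03% in SIUP, 85.2% to 86.1% in SCUP). Reads and read pairs are not counts of the same kind, so these shares serve only to set libraries side by side. The totals were 10174283 to 11330121 reads in SIP and 12926250 to 13773941 in SCP, so that SCP libraries resolved slightly lower levels. Genes with at least 1 RPKM numbered 18043 to 18286 per SIP library and 18165 to 18776 per SCP library. The part of this gap in the differences between the species was not tested.

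The libraries separated by species. The correlation of log2(RPKM + 0.5) across the genes tested was 0.940 to 0.978 between libraries of a group and 0.75 to 0.794 between a SIP and a SCP library, and the first principal component held 81.4% of the variance, with all SIP libraries on one side and all SCP libraries on the other. The tissue label could not be checked against marker genes, because no source used here names the stylar or pollen genes by ID. Pollinated styles also carry pollen and pollen tubes, and in RNA from whole styles fewer cells of a type and less RNA per cell cannot be told apart.

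About as many genes were higher as were lower in the incompatible styles and, in the main test, most of the genes that differed also differed before pollination. Of the 19268 genes, 9731 (50.5%) passed the test at an adjusted p under 0.05 (limma, Benjamini-Hochberg), 5227 of them higher in SIP (27.1%) and 4504 lower (23.4%). The lower side reached further: 3331 genes were at least 2-fold lower and 661 at least 8-fold lower, against 2841 and 386 higher, on the scale of log2(RPKM + 0.5), which understates the change of low genes. The values of the SIP and SCP libraries did not overlap for 11999 genes (62.3% of those tested), and 49 of the 9731 genes that passed had overlapping values. The median difference over all genes was 0.11 on the log2 scale, and centring each library on its median brought it to 0.06.

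Some genes could hardly fail to differ, because they entered through 1 species alone. At least 1 RPKM in all 3 SIP libraries and in no SCP library was found for 695 genes, 680 of which passed the test, and the reverse for 974 genes, 960 of which passed. Of the other 17599 genes 8091 passed (45.97%), 4547 higher and 3544 lower in SIP. At the edge of the filter, the third-highest value over the 6 libraries was at lowest 1.0001 RPKM among the genes tested and at highest 0.9993 RPKM among those left out. Of the 15450 genes left out, 7710 were listed at 0 in all 6 libraries.

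In unpollinated styles 10001 of 19215 genes passed the same test between SIUP and SCUP (52%), 5405 higher (28.1%) and 4596 lower (23.9%) in S. chilense. This comparison has no library in common with that of the pollinated styles. Of the 9731 genes that differed after selfing, 7301 (75.03%) differed in the same direction before it, 32 differed in the opposite direction, 1959 were tested and did not pass, and 439 were under the filter in unpollinated styles. With an unequal-variance test on RPKM, which called 2393 genes after selfing, 650 of them (27.2%) were also called in the same direction before it. The share that was shared grew with the size of the difference. It was 97.7% for the 386 genes at least 8-fold higher in SIP and 81.5% for the 661 genes at least 8-fold lower. Across the 18624 genes tested in both stages the 2 sets of differences had a Pearson correlation of 0.903 and a Spearman correlation of 0.878, given as a description, since genes are not independent replicates and poorer mapping of S. chilense reads enters both stages.

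**Figure D1:**
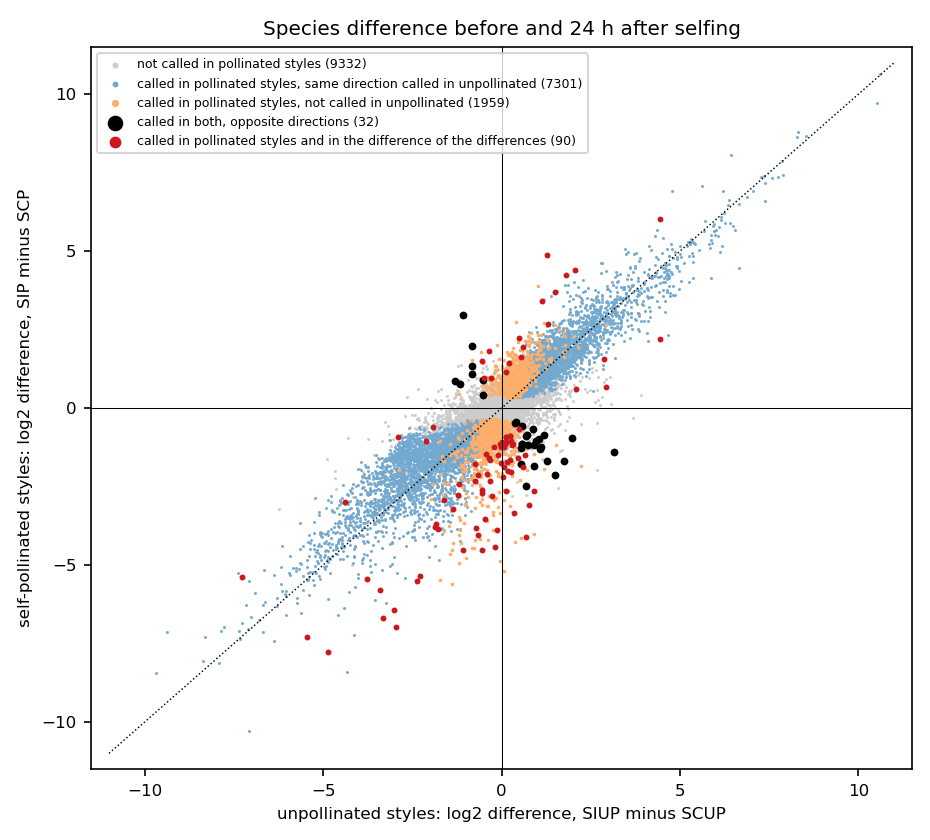
Each point is 1 of the 18624 genes tested in both stages: the horizontal axis gives the log2 difference between unpollinated styles (SIUP minus SCUP), the vertical axis that between self-pollinated styles (SIP minus SCP), and the dotted line marks equal differences. Most points lie along the line, the 32 black points changed direction, and the 90 red points, which passed the test between the stages, lie mostly below the line on the side of genes lower in SIP.

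Among genes with at least 1 RPKM in all 6 libraries, the 8 largest differences in each direction were 5.65 to 7.13 in size on the log2 scale, and all 16 genes differed in the same direction in unpollinated styles. None of the 8 genes with the largest excess in SIP is annotated in the sources used here. Solyc05g014090 had 413, 384 and 354 RPKM in SIP and 1.49, 1.52 and 5.22 RPKM in SCP, a difference of 7.07 ± 0.40 (SE) on the log2 scale (adjusted p = 4.96e-05). Solyc03g116200 had 366, 408 and 584 RPKM in SIP against 7.84, 5.45 and 1.38 in SCP, a difference of 6.61 ± 0.53 (adjusted p = 0.00017). For each of these genes every SIP library lay far above every SCP library. The other 6 (Solyc06g009960, Solyc07g054800, Solyc08g068140, Solyc00g313930, Solyc02g080200 and Solyc04g025560) were higher by 5.65 to 6.58 on the log2 scale, and the 8 genes were higher in SIUP than in SCUP by 4.36 to 7.37.

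The genes with the largest deficit in SIP included enzymes that act on sugars and walls. The chitinase-annotated gene Solyc10g055800, whose GO terms (gene ontology, as listed in the tables of the study) also name the hypersensitive response and the cell wall, had 1.29, 2.14 and 1.99 RPKM in SIP and 182, 241 and 177 in SCP. Its difference was -6.45 ± 0.21 (adjusted p = 9.74e-06), against -3.03 in unpollinated styles, where the means were 0.857 RPKM in SIUP and 11.8 in SCUP. The change of -3.42 between the stages, the difference after selfing minus that before it, had an adjusted p of 0.0271, kept in 7 of the 12 fits that left out a library (up to 0.0782) and lost with voom, a weighted fit to the read counts (0.227). Solyc10g083290, annotated as a sucrose-cleaving enzyme, had 9.11, 8.96 and 1.98 RPKM in SIP and 349, 575 and 445 in SCP (difference -6.20 ± 0.53, adjusted p = 0.000218). All SIP values of both genes lay below all SCP values.

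Solyc12g096750, annotated as a polygalacturonase, an enzyme that cuts pectin, had 7.01, 2.2 and 10.6 RPKM in SIP and 379.6, 389 and 299 in SCP (difference -5.86 ± 0.49, adjusted p = 0.000192). The 2 genes of this set with the highest levels in SCP carry no annotation in the sources used here. Solyc07g007710 had 14.4, 7.53 and 27.3 RPKM in SIP and 1629, 1914 and 2915 in SCP, and Solyc09g084460 had 14.1, 9.73 and 18.8 RPKM in SIP and 1928, 1619 and 2069 in SCP. Their differences were -7.13 ± 0.45 and -7.03 ± 0.24 after selfing and -9.37 and -7.11 before it. Solyc03g119210, Solyc10g076240 and Solyc02g082990 complete the 8 genes, with differences of -6.22, -6.11 and -5.98.

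**Figure D2:**
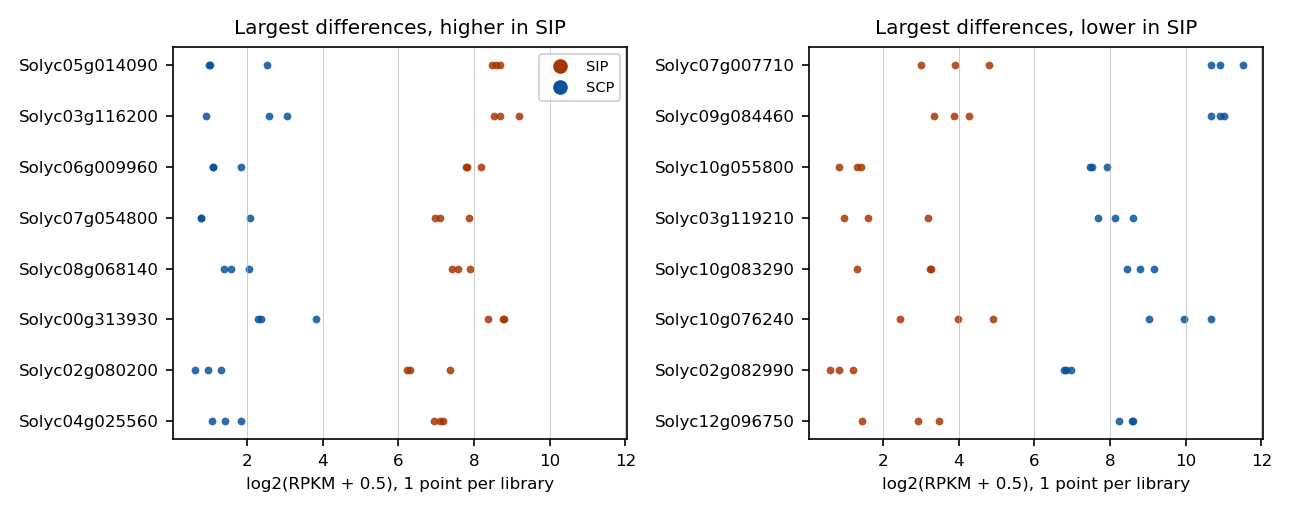
Each point is the log2(RPKM + 0.5) of 1 library for the 8 genes with the largest excess in SIP (left) and the 8 with the largest deficit (right), with SIP in brown and SCP in blue. In every row the 3 SIP points and the 3 SCP points form separate clusters.

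The most abundant transcripts of the pollinated style, picked after their values were seen, differed between the species as well. Solyc10g076200 had the highest mean in SIP, with 35853, 36054 and 42651 RPKM, and 5627, 7510 and 10706 RPKM in SCP (difference 2.31 ± 0.43, adjusted p = 0.00468). Solyc10g075110 ranked 3 in SIP and 238 in SCP, with 19210, 13148 and 22569 RPKM against 612, 627 and 518 (difference 4.94 ± 0.28, adjusted p = 4.96e-05). The highest mean in SCP belonged to Solyc01g088580, with 18393, 9015 and 11806 RPKM against 2022, 1701 and 1603 in SIP (difference -2.82 ± 0.34, adjusted p = 0.000785). For these 3 genes the groups did not overlap, and in unpollinated styles their means differed in the same direction. Solyc04g071610, which ranked 4 in SIP and 2 in SCP, had 12536 ± 1335 RPKM in SIP and 12351 ± 2497 in SCP (SD, n = 3; difference 0.04 ± 0.36, adjusted p = 0.943), less than the spread between replicates. The 10 genes with the most reads took 7.196% to 8.12% of the reads in SIP libraries and 4.56% to 6.06% in SCP libraries.

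A further set was read in 1 species only. Of the genes tested, 221 were listed at 0 in all 6 S. chilense libraries and 92 in all 6 S. pimpinellifolium libraries. Against a floor of 3 reads per library, Solyc02g014840 was at least 85.5-fold higher in SCP (72.3, 206 and 352 RPKM), Solyc09g015700 at least 49.7-fold, Solyc09g018830 at least 39.4-fold and Solyc05g006370 at least 38.3-fold. These 4 genes were at least 196-fold, 55.5-fold, 81.5-fold and 45.7-fold higher in SCUP than in SIUP, with 0 reads in S. chilense at both stages. Solyc08g080670 stood apart from them: it had 87.3, 32.1 and 69.7 RPKM in SCP, at least 146-fold above SIP, but 0.717 ± 0.798 RPKM in SCUP (SD, n = 3), at least 1.90-fold above SIUP.

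In the other direction, Solyc10g086770 was at least 91.3-fold higher in SIP (17.2, 19.9 and 23.9 RPKM) than in SCP, Solyc07g022880 at least 61.7-fold, Solyc05g014070 at least 59.7-fold, Solyc02g079700 at least 24.6-fold and Solyc12g019210 at least 8.62-fold. The same 5 genes were at least 90.7-fold, 68.7-fold, 77.7-fold, 13.5-fold and 18.5-fold higher in SIUP than in SCUP. None of these 10 genes is annotated in the sources used here, and 0 reads in a library can stand for a gene that is silent, missing or too diverged to be matched, which cannot be told apart from these values.

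To separate what came with selfing, the species difference after pollination was tested against that before it, (SIP - SCP) - (SIUP - SCUP), over all 12 libraries. This test shares the SIP and SCP libraries with the comparison above. It passed for 210 of 20277 genes (1.04%), 51 with a more positive (0.252%) and 159 with a more negative (0.784%) difference after selfing. Of the 9731 genes that differed between SIP and SCP, 180 also passed this test, and in 171 of them the sign was that of the difference after selfing: 138 lower and 33 higher in SIP. Of the 210 genes, 41 had passed the filter through 1 group alone, 32 of them through SCP, and 169 otherwise. At an unadjusted p under 0.05 the two-sided test passed for 2607 genes.

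The 138 genes that became lower in SIP relative to SCP all had a higher mean in SCP than in SCUP, with a median of 2.36 on the log2 scale between these groups, whereas the median between SIP and SIUP was 0.01. In 61 of the 138 genes the means of both S. chilense groups were under 1 RPKM. The 33 genes that became higher had a median of 1.75 between SIP and SIUP and of -0.32 between SCP and SCUP, and 31 of them had a higher mean in SIP than in SIUP. These medians describe genes selected for such a difference and carry no test. The part of pollen and pollen tube RNA in them was not tested.

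Both the 210 and the 180 depended on single libraries. Leaving out 1 library gave 29 to 389 in place of the 180, the lowest without SIUP replicate 3 and the highest without SCP replicate 1. In place of the 210 it was 35 without SIUP replicate 3, 50 without SIUP replicate 2, 56 without SIP replicate 3, 62 without SCUP replicate 3, 66 without SIP replicate 1, 75 without SCUP replicate 1, 107 without SCP replicate 2 and 466 without SCP replicate 1. It was 140 without SIP replicate 2, 188 without SCP replicate 3, 226 without SIUP replicate 1 and 267 without SCUP replicate 2. With voom on the recovered reads it was 28, all of them among the 210 genes and in the same direction.

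Of the 8 genes named on the lower side, Solyc08g068770, annotated with sulfate transport and N-acetyltransferase activity, was high in SCP alone. It had 46.3, 53.9 and 48.9 RPKM in SCP and 2.94, 1.7 and 2.68 in SIP, while the unpollinated means were 2.09 ± 2.26 in SCUP and 2.72 ± 0.624 in SIUP (SD, n = 3). The difference of the differences was -4.81 (adjusted p = 0.0159 and, with voom, 0.0388), and it missed the threshold without SIUP replicate 3 (adjusted p = 0.0571). Solyc08g080670, given above, had a change of -5.79 that held without each library (adjusted p at most 0.0209) and missed with voom (0.13).

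Solyc03g096550, whose GO terms name the plasma, vacuolar and thylakoid membranes, had 33.1, 40.5 and 35.6 RPKM in SCP and a mean of 1.24 in SCUP, and S. chilense had 1 read in SIP and none in SIUP. The ratio of SCP to SIP was 983 (95% counting interval 176 to 38851), and the test of the differences held with each of the 12 libraries left out (adjusted p at most 0.00257) but not with voom (0.0522). Solyc01g106610, without annotation, was at least 35.1-fold higher in SCP (9.81, 9.87 and 21.2 RPKM) than in SIP (0 in all 3 libraries), and had 0.28 ± 0.273 RPKM in SCUP. It entered the test through its SCP libraries alone. In the comparison of SIP with SCP that also held for Solyc03g096550, Solyc08g080670 and Solyc11g018800, and a call there was a condition for naming these genes.

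Solyc05g008220, Solyc11g018800 and Solyc03g006700, also without annotation, had SCP means of 36.8, 115 and 28.2 RPKM against 1.14, 0.257 and 0.687 in SIP, with differences of the differences of -4.23, -4.02 and -3.98. They kept the call in 7, 3 and 6 of the 12 fits that left out a library, with adjusted p up to 0.0744, 0.116 and 0.057, and lost it with voom (0.101, 0.482 and 0.115).

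On the higher side, Solyc11g040140, annotated as a xyloglucan transferase, an enzyme that cuts and rejoins wall polymers, had 19.6, 32.5 and 21.2 RPKM in SIP and 2.28, 1.88 and 4.02 in SCP (difference 2.97 ± 0.31, adjusted p = 0.000444). Before selfing the order was reversed, with 2.85 ± 0.44 RPKM in SIUP and 7.18 ± 3.82 in SCUP (difference -1.09, adjusted p = 0.0304). The difference of the differences of 4.06 (adjusted p = 0.00624) held with voom (0.0347) and without each library (at most 0.0257). The SIP libraries stood above all 9 others.

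Solyc07g065110, without annotation, had 22.8, 12.6 and 22.2 RPKM in SIP and 2 reads in all of SCP, a ratio of 119.6 (95% counting interval 32.7 to 994), while the unpollinated means were 1.44 in SIUP and 0.304 in SCUP. Its test held without each library (adjusted p at most 0.0209) and missed with voom (0.0559). Solyc00g005040, annotated as an inward rectifier potassium channel, had 17.8, 13.7 and 13 RPKM in SIP, 0.388, 0.197 and 0.37 in SCP and 1.52 ± 0.769 in SIUP, with a difference of the differences of 2.42 (adjusted p = 0.0175). It kept the call in 8 of 12 fits without a library, and with voom its adjusted p was 0.392. In the comparison of SIP with SCP, Solyc07g065110 and Solyc00g005040 entered through SIP alone, and a call there was a condition for naming them.

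Solyc01g079270 had 78.1, 59.5 and 85 RPKM in SIP, 4.95, 8.66 and 6.43 in SCP and means of 19.7 in SIUP and 8.66 in SCUP, so that SIP was again the high group. Solyc02g065780 differed from the others in that SIP (45.9 ± 9.42 RPKM) was level with SIUP (44.9 ± 7.85), and SCP (1.79 ± 0.887) lay below SCUP (10.4 ± 2.57; all SD, n = 3). The remaining Solyc02g037550, Solyc12g042930 and Solyc00g024160 had SIP means of 4.74, 8.74 and 8.62 RPKM and unpollinated means under 0.5, and the first 2 entered the test through SIP alone. These 5 genes, none annotated, kept the call in 2 to 5 of 12 fits without a library, and with voom their adjusted p were 0.06 to 0.268.

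**Figure D3:**
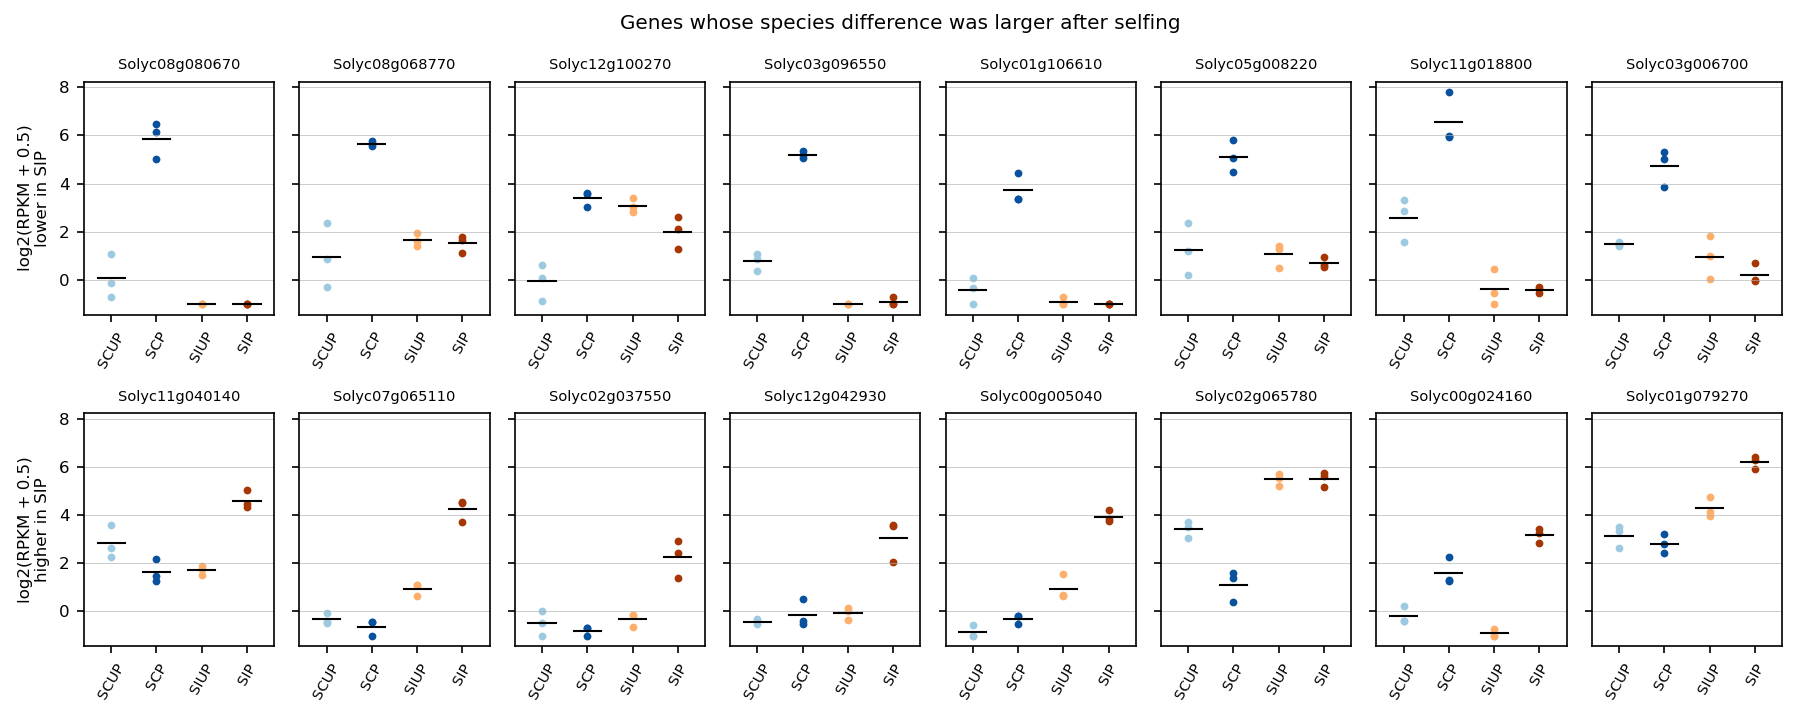
Points give log2(RPKM + 0.5) of each library in the 4 groups, with a line at the mean of 3, for the 8 genes whose difference became more negative after selfing (top) and the 8 for which it became more positive (bottom). In 7 of the top panels SCP alone is high, in Solyc12g100270 SIUP is also high, and in the bottom panels SIP is the highest group, except that it is level with SIUP in Solyc02g065780.

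In 32 genes the species changed places: 24 were higher in SIUP than in SCUP and then lower in SIP than in SCP, and 8 the reverse, and 24 of the 32 passed the test of the difference between the stages. Solyc12g100270, annotated with fatty acid synthesis, had 8.13 ± 1.84 RPKM in SIUP and 0.545 ± 0.499 in SCUP before selfing, and 3.8, 5.54 and 1.97 in SIP and 7.56, 11.3 and 11.7 in SCP after it. Its difference went from 3.15 to -1.39 ± 0.36 (adjusted p = 0.0167 after selfing, and up to 0.0565 with SCP replicate 2 or 3 left out), and the change of -4.54 held with voom (0.0347) and without each library (at most 0.0323). Solyc06g063180, chosen after its values were seen, had 19.3, 13.8 and 8.44 RPKM in SIP and 69.5, 100.1 and 61.5 in SCP, against means of 13.5 in SIUP and 8.16 in SCUP. Here S. chilense stayed at its level and S. pimpinellifolium was the species whose 2 groups lay apart.

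The hormone genes named in the study were chosen there on these same libraries, so their counts are no independent evidence. Of 48 genes 43 were tested between SIP and SCP, and 9 were higher and 19 lower in SIP, that is 20.9% and 44.2%, beside 27.1% and 23.4% over all genes. Their median was -0.74 on the log2 scale against 0.11 over all genes. Of these 28 genes, 18 (64.3%) differed in the same direction in unpollinated styles, beside 75.03% of all genes called.

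Of the 10 genes of ethylene synthesis 2 were higher and 3 lower in SIP, a share near the 50.5% called over all genes, with members of the ACC synthase family on both sides. The SAM synthase Solyc10g083970, which supplies the precursor, had 278, 240 and 246 RPKM in SIP and 678, 313 and 401 in SCP (difference -0.79 ± 0.28, adjusted p = 0.0529, and 0.0288 with libraries paired by replicate number; it also passed with voom, 0.0496, and without SCP replicate 1 or 2, 0.0481 and 0.0234). Without pollen the SAM synthase gene was lower in S. chilense (-1.87, adjusted p = 0.000388), with means of 98.5 RPKM in SIUP and 357 in SCUP. Its change between the stages of 1.08 did not pass (adjusted p = 0.245). Of the 10 genes, 2 were higher and 5 lower in SIUP than in SCUP. Of 5 genes of ACC synthase, the rate-limiting enzyme, 2 were higher and 2 lower in SIP. Solyc08g081550 had 262, 284 and 262 RPKM in SIP and 922, 934 and 1068 in SCP (difference -1.85 ± 0.14, adjusted p = 0.000141), and Solyc00g095860 was lower by a similar amount (-1.57 ± 0.14).

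Solyc08g081540 had 184, 192 and 183 RPKM in SIP and 93.6, 90.7 and 110.4 in SCP (difference 0.93 ± 0.13, adjusted p = 0.00137). Solyc00g095760 had 21, 16.4 and 19.5 RPKM in SIP and 0.0759, 3.09 and 1.3 in SCP (difference 3.64 ± 0.61, adjusted p = 0.0032). The groups did not overlap in any of these 4, each had the same direction in unpollinated styles, and neighbouring or similar gene copies may share reads, since how reads matching several genes were handled is unknown here. The fifth, Solyc08g008100, spanned 218 to 372 RPKM in SIP and 118 to 406 in SCP. In unpollinated styles it was lower in S. chilense (-1.33, adjusted p = 0.00176), with means of 58.6 RPKM in SIUP and 145 in SCUP.

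ACC oxidase, which makes ethylene itself, was among the most abundant transcripts of both species. Solyc07g049550 had 7631, 7623 and 8490 RPKM in SIP and 8542, 7149 and 6560 in SCP (difference 0.10 ± 0.30, adjusted p = 0.795; with quantile normalization -0.50), overlapping groups within the spread of the replicates. Solyc07g049530 (-0.09 ± 0.23) and Solyc02g036350 (-0.25 ± 0.32) also overlapped between the species. Without pollen Solyc02g036350 was lower in S. chilense (-0.93, adjusted p = 0.031), and Solyc07g049550 and Solyc07g049530 did not pass. The minor Solyc07g026650 was lower in SIP, with 14.1, 14.4 and 6.88 RPKM against 102, 27.9 and 84.7 (difference -2.42 ± 0.52, adjusted p = 0.00842).

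Of 6 genes of ethylene perception and its SCF ubiquitin ligase, 4 were lower in SIP (66.7%, beside 23.4% over all genes) and 2 did not pass. The receptor LeETR6 (Solyc06g053710) had 3705, 3373 and 3542 RPKM in SIP and 4389, 2435 and 3342 in SCP (0.10 ± 0.29, adjusted p = 0.783). The receptors tETR (-1.25 ± 0.41, adjusted p = 0.0415) and LeETR2 (-1.04 ± 0.34, adjusted p = 0.0394) were lower, though each lost the call in 5 of the 6 fits without a library (adjusted p up to 0.129 and 0.125), and tETR also with voom (0.0647). The EBF gene Solyc07g008250, whose product sends the transcription factor EIN3 to breakdown, had 119, 137 and 96.5 RPKM in SIP and 392, 282 and 293 in SCP (-1.45 ± 0.19, adjusted p = 0.00124). The other EBF gene, Solyc12g009560, did not pass (0.31 ± 0.34, adjusted p = 0.476). Skp1 was lower by 1.33 on the log2 scale (SE 0.16, adjusted p = 0.000841), and Cul1 was under the filter. Of the 4 lower genes, 3 were already lower in SIUP than in SCUP by the same test. The unpollinated differences were -1.35 for Solyc07g008250 (adjusted p = 0.00403), -2.49 for Skp1 (0.000165) and -0.91 for LeETR2 (0.0338). For tETR the unpollinated difference of -0.59 did not pass (adjusted p = 0.119).

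Of 20 auxin genes tested, 6 were higher (30%, beside 27.1% over all genes) and 9 lower in SIP (45%, beside 23.4%). Of these, ALDH2B4 entered the test through SIP alone, and Solyc09g009980 and ARG7-like through SCP alone, so their calls could hardly fail. The Aux/IAA repressors, which hold back auxin-responsive transcription, went both ways: IAA22 (Solyc06g008580) had 74.5, 67.9 and 84.2 RPKM in SIP and 17.9, 5.98 and 6.03 in SCP (3.04 ± 0.41, adjusted p = 0.0012), and IAA36 (Solyc06g066020) had 24.7, 20 and 15.2 against 274, 73.8 and 106 (-2.69 ± 0.47, adjusted p = 0.00364). Both stood the same way in unpollinated styles, and in neither did the groups overlap. IAA2 and IAA19 were also higher, and IAA3, IAA26 and IAA29 also lower, while IAA1 (0.30 ± 0.32) and IAA35 (-0.50 ± 0.20) did not pass. IAA19 and IAA26 lost the call in 5 of 6 fits without a library (adjusted p up to 0.106 and 0.122), IAA19 also with libraries centred on their median, IAA2 in 3 of 6 (up to 0.0649), and IAA29 without SCP replicate 2 (0.0795).

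The conjugating enzyme GH3.1-like (Solyc02g092820) had 15.7, 23.7 and 7.81 RPKM in SIP and 80.1, 133 and 134 in SCP (-2.93 ± 0.41, adjusted p = 0.00141). Among the small auxin-up RNAs, 15A-like Solyc09g009980 had 0.749, 0.493 and 0.137 RPKM in SIP and 18.5, 14.4 and 12.8 in SCP (-4.07 ± 0.30; it entered the test through SCP alone, where it is high), from 0.115 in SIUP and 1.06 in SCUP. Only SCP was high, and the difference of the differences was -2.73 (adjusted p = 0.00923, at most 0.0422 without any library, and 0.272 with voom). ARG7-like (Solyc04g081250) and Solyc12g009280 were lower too, the former entering the test through SCP alone. Solyc12g009280 differed by -0.93 after selfing and by -2.74 before it (adjusted p = 0.00204 and 0.00314). Its means were 17.2 RPKM in SIUP and 109 in SCUP, then 55.1 in SIP and 105 in SCP. The change between the stages of 1.80 did not pass (adjusted p = 0.197). The 10A5-like gene Solyc03g033590 was higher (2.32 ± 0.44, adjusted p = 0.00525), and in unpollinated styles it did not pass (1.02, adjusted p = 0.339).

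The aldehyde dehydrogenases, which the study places at the last step of auxin synthesis, lay on opposite sides in the main test. ALDH2B4 (Solyc08g068190) had 2.43, 3.64 and 4.07 RPKM in SIP and 3 reads in all of SCP, a ratio of 22.0 (95% counting interval 7.12 to 109.8). It entered the test through SIP alone, where it is high, so its call could hardly fail. In unpollinated styles ALDH2B4 was also higher in S. chilense (3.31, adjusted p = 1.67e-05), with means of 6.89 RPKM in SIUP and 0.245 in SCUP. ALDH3H1-like (Solyc06g060250) had 69.8, 99.3 and 63.7 RPKM in SIP and 129, 135 and 104 in SCP. The latter is among the 32 genes that changed places, with 90.4 ± 21.2 RPKM in SIUP and 47.9 ± 0.823 in SCUP. Its difference of -0.68 ± 0.20 (adjusted p = 0.0292) kept the call in 2 of 6 fits without a library (up to 0.0981), and the change between the stages of -1.56 kept it in 5 of 12 (up to 0.101) and lost it with voom (0.0568). The influx carrier LAX2 was higher in SIP (1.26 ± 0.35, adjusted p = 0.0235), and in 3 of 6 fits without a library its adjusted p was above the threshold, up to 0.076.

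Abscisic acid genes gave the largest difference of the hormone set. The xanthoxin dehydrogenase gene Solyc12g056600, of the synthesis pathway, had 0.719, 0.0807 and 1.31 RPKM in SIP and 238, 308 and 176 in SCP (-7.76 ± 0.43, adjusted p = 4.33e-05). Unpollinated styles had 0.103 ± 0.117 RPKM in SIUP and 17.9 ± 7.15 in SCUP, a difference of -4.87 (adjusted p = 3.78e-05). SCP was the high group, and the further difference of -2.89 had an adjusted p of 0.0428 and was lost in 9 of 12 fits without a library (up to 0.128) and with voom (0.691).

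The receptor PYL6-like (Solyc06g050500) had 2.69, 2.42 and 1.47 RPKM in SIP and 18.1, 30.7 and 25.5 in SCP (-3.23 ± 0.28, adjusted p = 0.000217), with a change between the stages of -1.85 that kept the call in 2 of 12 fits without a library (adjusted p up to 0.136) and lost it with voom (0.168). The kinase SAPK3-like (Solyc08g077780) was lower as well (-1.34 ± 0.35, adjusted p = 0.0176; lost without SIP replicate 2 or 3, up to 0.0614). The receptor PYL8-like (-1.10 ± 0.61, adjusted p = 0.173, and 0.0167 with libraries paired by replicate number) and the catabolic CYP707A2 (-1.18 ± 0.55, adjusted p = 0.116) overlapped between the groups. Both moved with single libraries: PYL8-like was -1.74 and passed without SCP replicate 1 (adjusted p = 0.0152), and CYP707A2 was -1.75 and passed without SCP replicate 2 (0.0185) but was -0.59 without SCP replicate 1. In unpollinated styles CYP707A2 was lower in S. chilense (-2.71, adjusted p = 0.000239), with means of 13.6 RPKM in SIUP and 95 in SCUP. After selfing its means were 71.3 in SIP and 195 in SCP, and the change of 1.53 did not pass (adjusted p = 0.374). PYL6-like (-1.37, adjusted p = 0.00291) and SAPK3-like (-1.05, 0.0034) were also lower without pollen, and PYL8-like did not pass (0.60, 0.132). SAPK7-like and the bZIP gene Solyc10g076920 were under the filter.

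Of the jasmonate genes, 1 of 2 tested passed, beside 50.5% over all genes. MYC2 (Solyc08g076930), the activator, had 131, 151 and 125 RPKM in SIP and 93.8, 84.1 and 94.2 in SCP (0.57 ± 0.13, adjusted p = 0.0103), after 58.6 in SIUP and 63.8 in SCUP. JAZ1 (Solyc12g009220), the repressor, had 399, 436 and 488 RPKM in SIP and 554, 576 and 610.3 in SCP, a difference of -0.40 ± 0.15 that missed the threshold (adjusted p = 0.0574, and 0.0445 with libraries centred on their median) although the groups did not overlap. In unpollinated styles JAZ1 had 149 ± 24.2 RPKM in SIUP and 432 ± 59.8 in SCUP (SD, n = 3), and the gap narrowed by 1.13 on the log2 scale (adjusted p = 0.042, lost in 10 of 12 fits without a library, up to 0.128, and with voom, 0.0795). The TGA gene of salicylic acid signalling was under the filter.

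**Figure D4:**
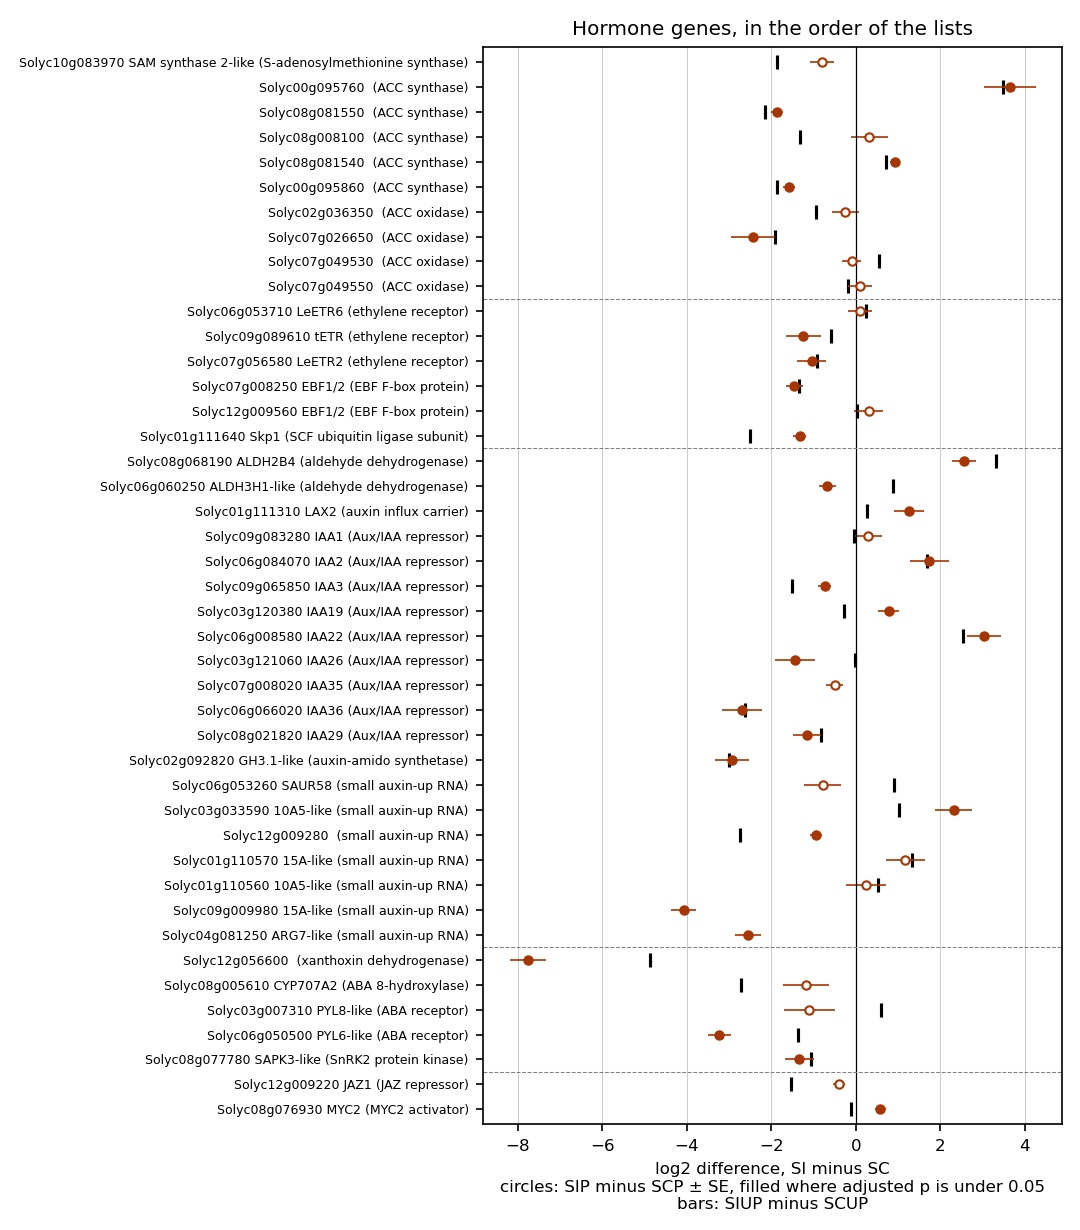
Circles give the log2 difference SIP minus SCP with its standard error for the 43 hormone genes tested, filled where the adjusted p is under 0.05, and black bars the difference SIUP minus SCUP where tested; dashed lines part the 5 lists. Xanthoxin dehydrogenase lies farthest left at -7.76, and ACC synthase Solyc00g095760 farthest right at 3.64.

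Enzymes of the wall matrix and of sugar supply could be described where the study lists a GO term. The study listed such terms for genes it found to change with pollination in either species, in tables held here only in part, and the groups that follow were formed after values were seen. Of 860 genes with terms, 744 were tested, with 159 higher and 379 lower in SIP and a median of -0.80, so that these counts are no independent evidence. The shares were 21.4% higher and 50.9% lower, beside 27.1% and 23.4% over all genes.

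All 10 pectin enzymes tested were lower in SIP, beside 50.9% of the genes with GO terms and 23.4% of all genes. One of them, Solyc09g075330, entered the test through its SCP libraries alone. Of the 3 polygalacturonases, Solyc12g096740 had 0.76, 0.758 and 1 RPKM in SIP and 104, 195 and 124 in SCP (-6.68 ± 0.25, adjusted p = 1.43e-05), against 1.12 in SIUP and 17 in SCUP, with a change between the stages of -3.36 (adjusted p = 0.0223). The 7 pectinesterases, which strip methyl groups from pectin, differed by -4.15 to -0.94 (median -1.81). Solyc05g054360 had 128, 197 and 117 RPKM in SIP and 512, 526 and 558 in SCP (-1.89 ± 0.21, adjusted p = 0.000626). In unpollinated styles the same gene had 40.6 ± 25.3 RPKM in SIUP and 521 ± 245 in SCUP. That gap was larger on the log2 scale (-3.73). The SCP mean of 532 was level with SCUP, and the SIP mean of 147 was above SIUP. Its change between the stages of 1.85 did not pass (adjusted p = 0.193). Over the 7 pectinesterases the median change was 1.58, and the only 1 that passed was negative. Of the 10 pectin enzymes 9 were tested and lower in SIUP too.

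Xyloglucan transferases were split, with 3 higher and 3 lower in SIP among 7. Solyc03g093080 had 48.9, 51.6 and 76.5 RPKM in SIP and 508, 265 and 560.1 in SCP (-2.86 ± 0.32, adjusted p = 0.0006), while Solyc11g040140, described above, was the highest relative to SCP. Of 5 genes annotated as sucrose-cleaving, 4 were lower in SIP (median -2.74 over the 5), all 4 of them in unpollinated styles as well. Both chitinases were lower, Solyc04g072000 with 26.6, 19.1 and 7.49 RPKM in SIP and 49.9, 65.4 and 70.1 in SCP (-1.93 ± 0.43, adjusted p = 0.00998). Beside the counts for these small groups stood 50.9% lower and 21.4% higher among genes with GO terms, and 23.4% and 27.1% over all genes.

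**Figure D5:**
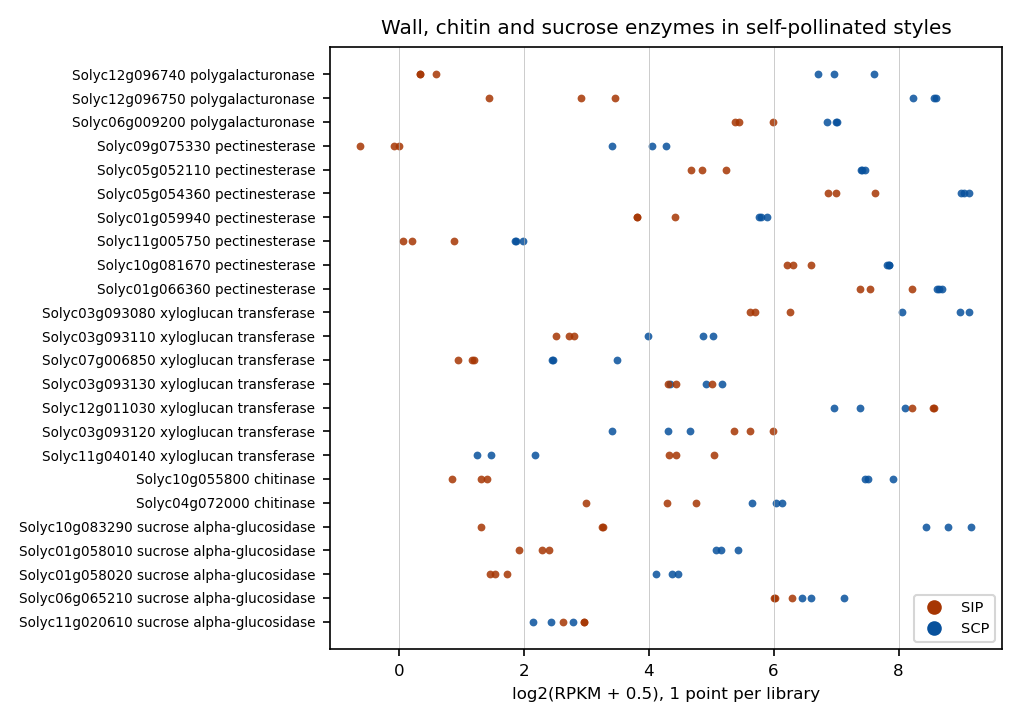
Each point is the log2(RPKM + 0.5) of 1 library, SIP in brown and SCP in blue, for genes with GO terms of pectin, xyloglucan, chitin and sucrose enzymes, ordered by difference within a group. In all 10 pectin enzymes and both chitinases the SIP points lie to the left of the SCP points, and the xyloglucan transferases lie on both sides.

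Among other enzymes with such terms, 5 of 6 peroxidases were lower and 1 higher in SIP, as were 8 and 2 of 14 monooxygenases and 28 and 6 of 53 serine/threonine kinases. The lower shares of the monooxygenases (57.1%) and kinases (52.8%) were near the 50.9% over all genes with GO terms, and that of the 6 peroxidases was 83.3%. Some of the lower genes entered the test through SCP alone and could hardly fail to pass. They were peroxidases Solyc01g105070 and Solyc02g079510, monooxygenases Solyc03g112030, Solyc04g010320, Solyc05g047530 and Solyc08g079420, and kinases that include Solyc02g030380, Solyc02g072070 and Solyc02g086210. The higher monooxygenase Solyc04g054250 entered through SIP alone.

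Of 15 genes with the term defence response to fungus, 9 were lower (60%) and 3 higher in SIP (20%), beside 50.9% and 21.4% over all genes with GO terms. The transcription factor gene Solyc03g118190 had 1.57, 2.04 and 0.638 RPKM in SIP and 81.9, 75 and 66.9 in SCP (-5.36 ± 0.31, adjusted p = 4.96e-05). Its unpollinated means were 1.56 in SIUP and 9.99 in SCUP, so that SCP was the high group. The term recognition of pollen was carried by 8 tested genes, 4 of which were lower and none higher in SIP, a share near the 50.5% called over all genes and the 50.9% lower among genes with GO terms. Among them Solyc09g075910, also annotated as a serine/threonine kinase, had 2.15, 1.5 and 1.24 RPKM in SIP and 22.5, 53.8 and 29.4 in SCP (-3.99 ± 0.35, adjusted p = 0.000226).

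Genes with the term pollen tube growth, the nearest to a pollen list that the sources offer, lay apart before selfing as well. Of 7 tested, 4 were lower and 1 higher in SIP (57.1% and 14.3%, beside 50.9% and 21.4% over all genes with GO terms; median -0.71), and in unpollinated styles, 5 were lower and 1 higher (median -2.06). Solyc05g052110, which is also a pectinesterase, had means of 30.3 RPKM in SIP and 171 in SCP, and its difference was -2.50 after selfing and -4.08 before it.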

How the data were processed

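Styles with stigmas of S. chilense LA0130 and S. pimpinellifolium LA1585 were sequenced as poly-A RNA, 3 libraries for each of 4 groups. The authors used Trimmomatic 0.32 for trimming, TopHat2 for alignment against tomato and HTSeq for counting per gene, and the deposited gene values are RPKM. The table of read counts that the authors deposited gives the read pairs kept per library and was used for mapping shares only. Neither the genome build nor how reads with several matching genes were handled is stated in the sources used here. A sheet with the authors' own fold changes and p-values was not used.

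Of the genes listed, 7 with spreadsheet error codes and 1 line naming no gene were left out. All values of 26562 genes were whole multiples of 1 read (100% within 1e-06 reads), so reads were recovered, and voom on them called 9607 genes. The main test was limma 3.58.1 (R 4.3.3) with an intensity trend on log2(RPKM + 0.5), for genes with at least 1 RPKM in 3 libraries, on the libraries compared or, between the stages, on all 12, with Benjamini-Hochberg adjustment over all genes tested at 0.05. Scripts ran in Python 3.11.15 and were tested on simulated data. Intervals (95%, exact Clopper-Pearson) and floors of 3 reads per library cover counting error only. Libraries of a group differed by far more than counting noise (chi-square per gene at least 17.8, where 1 is noise).

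The members and lists were chosen with earlier results of these data known. Named genes were the 8 largest differences in each direction among genes called with at least 1 RPKM in all 6 libraries and groups apart, the 5 genes with the highest mean after selfing among those at 0 in the other species, each way, the 8 largest changes between the stages in each direction among genes called in both tests with the same sign and at least 1 RPKM in the 3 libraries of the higher group, and the 48 hormone genes of the study. Annotation lists and cell type markers were not analysed here, since the annotation given did not match the gene IDs. Deviations of libraries with the same replicate number had correlations of 0.293, 0.101 and 0.154 in pollinated styles. In unpollinated styles the correlations were -0.03, 0.08 and 0.09, and a difference between the stages was not tested. The labels give the numbers and no shared batch. Alternatives were other scalings, filters, pseudocounts, tests, a replicate block and leaving out each library.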

Additional observations from a re-analysis of the deposited data

Results flagged for a closer look

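For 22 named genes the species difference after selfing differed from that before it, by limma's test over all 12 libraries. The value is (SIP - SCP) - (SIUP - SCUP) on the scale of log2(RPKM + 0.5), and for genes at or near 0 reads it depends on the 0.5 added. Groups of 3 libraries are too small for a test of single libraries.

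Among genes that became lower in SIP relative to SCP, the values were -5.79 for Solyc08g080670, -4.81 for Solyc08g068770, -4.54 for Solyc12g100270, -4.33 for Solyc03g096550, -4.25 for Solyc01g106610, -4.23 for Solyc05g008220, -4.02 for Solyc11g018800, -3.98 for Solyc03g006700 and -3.42 for the chitinase gene Solyc10g055800. Hormone genes on the same side were xanthoxin dehydrogenase Solyc12g056600 with -2.89, the small auxin-up RNA Solyc09g009980 with -2.73, PYL6-like Solyc06g050500 with -1.85 and ALDH3H1-like Solyc06g060250 with -1.56.

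On the other side, the values were 4.06 for the xyloglucan transferase gene Solyc11g040140, 3.61 for Solyc07g065110, 2.88 for Solyc02g037550, 2.82 for Solyc12g042930, 2.42 for the potassium channel gene Solyc00g005040, 2.34 for Solyc02g065780, 2.27 for Solyc00g024160, 2.25 for Solyc01g079270 and 1.13 for JAZ1 (Solyc12g009220).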

How the results depend on the processing

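The 69 named genes called between SIP and SCP kept their direction in every alternative, and 15 of them also the call. The 22 called between the stages kept their direction, and none kept the call in every alternative. The unequal-variance test on RPKM called 2393 genes between SIP and SCP, 2259 between SIUP and SCUP and 8 between the stages, with 650 called in the same direction before and after selfing and 8 called after selfing and between the stages. Between the stages voom called 28 genes (21 of them also after selfing), a filter of 5 RPKM 139, and a pseudocount of 0.1 107 (91). Leaving out each library in turn gave 7325 to 10436 calls after selfing, 7396 to 9567 before it, 35 to 466 between the stages, 5928 to 7501 in the same direction at both stages and 29 to 389 after selfing and between the stages. With the replicate block the calls were 9959, 9546 and 219, and beside SAM synthase and PYL8-like, which passed, the pairing changed no call of a named gene between SIP and SCP, while Solyc01g079270, Solyc11g018800, Solyc12g009220 and Solyc12g056600 no longer passed between the stages. Some genes that did not pass changed sign. Leaving out each library in turn, Solyc01g110560 ranged from -0.20 to 0.77, Solyc02g036350 from -0.44 to 0.0368, Solyc06g053710 from -0.11 to 0.31, Solyc07g049530 from -0.19 to 0.0927, Solyc08g008100 from -0.15 to 0.74 and Solyc12g009560 from -0.0268 to 0.64. With quantile normalization Solyc07g049530 was 0.11 and Solyc07g049550 -0.50. The causes were not tested. Depth limits genes near 0, where 3 reads set the floor.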
